A study of Mus musculus with 6 samples.

Results

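The transcripts of respiratory complexes III, IV and V were followed in macrophages grown from mouse bone marrow in culture, with and without lipopolysaccharide (LPS), a cell-wall glycolipid of bacteria that activates macrophages. Members were taken by gene name: names that begin with Uqcr, Atp5 or Cox and a digit, the genes Cyc1 and Cycs, and the mitochondrially encoded mt-Co, mt-Atp and mt-Cytb genes, with 11 names marked as pseudogenes dropped. The rule gave 63 of the 55736 genes in the table, 57 of them nuclear and 6 encoded in mitochondrial DNA. Complex III had 10, cytochrome c 1, complex IV 32 with its assembly factors, and complex V 20. RNA sequencing was done on 3 LPS libraries, from cells given 200 ng/ml LPS for 24 h, and 3 Ctrl libraries, from control cells at 24 h. Cells of both groups are labelled wild type, from mouse marrow, with the cell type given as leukocyte. The labels do not say whether replicate libraries are separate cultures or mice, and p-values then cover no more than the spread among these 6 libraries. A number 500 in the LPS titles is not explained by the labels. The study was set up around CCL7, macrophage polarization and rheumatoid arthritis, and the comparison made here is between LPS and Ctrl macrophages.

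Complex III (ubiquinol-cytochrome c reductase) passes electrons from ubiquinol to cytochrome c, and complex IV (cytochrome c oxidase) passes them on to oxygen. Both pump protons across the mitochondrial inner membrane, and complex V (ATP synthase) lets protons flow back through a rotating ring of c subunits to make ATP. Each of these complexes is built from subunits of 2 genomes, with a few core subunits made inside the mitochondrion and the rest imported from the cytosol. In macrophages, activation by LPS is known to be accompanied by a shift of ATP production towards glycolysis.

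After LPS the mitochondrially encoded transcripts of all 3 complexes were lower, while the summed nuclear subunit transcripts of each complex overlapped between the groups on the deposited scale and were higher in every LPS library after median-of-ratios scaling, described below. Values are TPM, shares of all transcripts in a library that are corrected for transcript length and scaled to a fixed total. Comparing levels between genes rests on that length correction. Differences are LPS minus Ctrl on the log2(TPM + 1) scale, from limma fitted on the 12440 genes that reached 1 TPM in 3 or more libraries, and a gene is called where its Benjamini-Hochberg adjusted p is under 0.05. Of the 63 members 55 were tested. Of the 6 mitochondrially encoded members 5 were called lower and 0 higher in LPS. Of the 49 nuclear members tested 14 were called higher and 10 lower, while 25 were not called. Among all tested genes 16.3% were called higher and 59.8% lower (76.1% in either direction). The median difference was -1.78 for mitochondrially encoded members and -0.05 for nuclear members, against -0.44 for all tested genes.

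The sign of small differences in this set depends on how the libraries are scaled. TPM has a fixed total, and Saa3 (a serum amyloid) and Fth1 (ferritin heavy chain) took far more of it after LPS. Saa3 averaged 100091 ± 5882 TPM in LPS and 11 ± 2.63 TPM in Ctrl libraries, and Fth1 averaged 76204 ± 1311 TPM in LPS and 20156 ± 964 TPM in Ctrl libraries (SD, n = 3 each). Median-of-ratios scaling, which brings the median difference of all tested genes to 0.00, divides LPS libraries by 0.835 to 0.864 and Ctrl libraries by 1.18 to 1.22. On that scale 33.5% of all tested genes were called higher and 33.6% lower (67.1% in either direction). Of the nuclear members 39 were then called higher and 1 lower, and of the mitochondrially encoded members 4 were called lower and 0 higher. Because this scaling moves every difference upwards, it could lose no higher call by direction. All 14 members called higher on deposited TPM were called higher again, and of the 15 called lower 5 were called lower again. Ratios between genes of the same library do not change with its scaling and are given beside the differences. Counts by complex or gene list below stand against these shares of all tested genes.

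**Figure D1:**
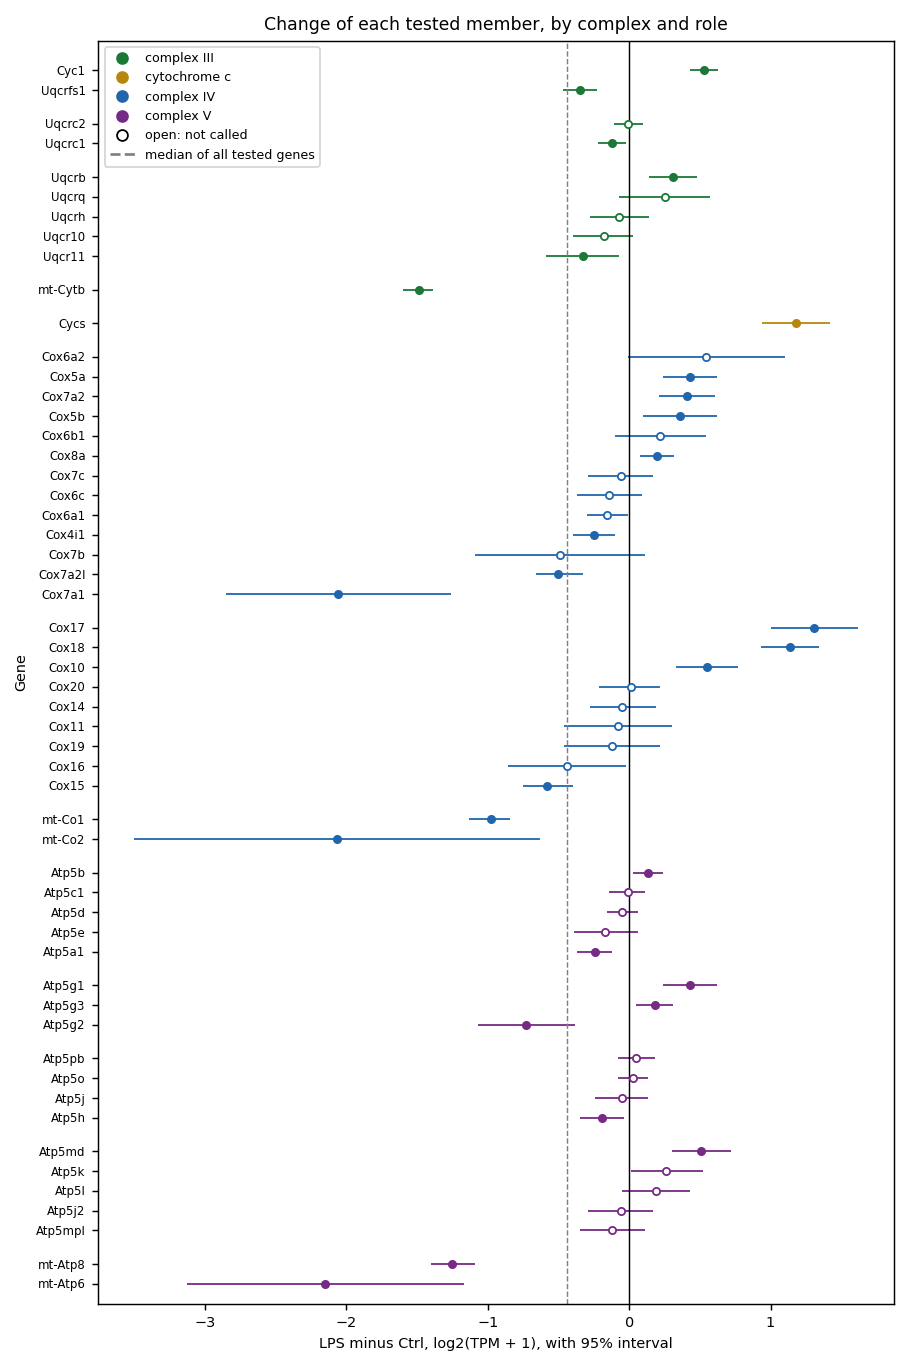
LPS minus Ctrl difference of each tested member on the log2(TPM + 1) scale, with 95% intervals from limma that are not adjusted for the number of genes, grouped by complex. Filled points are called at an adjusted p under 0.05 and open points are not, the solid line is 0 and the dashed line is the median of all tested genes, -0.44. Mitochondrially encoded members lie furthest to the negative side, with Cox7a1. The own row of mt-Co3 is left out because its interval is too wide to draw.

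The mitochondrially encoded values first need their sequences, since several of these genes have near-identical copies in nuclear DNA. These copies are fragments of mitochondrial DNA inserted in a chromosome, and a read from the mitochondrial mRNA matches both places. In the GENCODE M21 transcripts (GRCm38), mt-Co2 had 100% identity over 681 bases with Gm28661, mt-Co3 had 100% identity over 783 bases with Gm28437 and mt-Atp6 had 100% identity over 678 bases with Gm10925. All these copies are annotated as unprocessed pseudogenes and lie side by side on the minus strand of chromosome 1. The first pair below shows bases 31 to 120 of mt-Co2 (GRCm38 chrM:7013-7696, plus strand) and of Gm28661 (chr1:24614885-24615565, minus strand), in which no base differs. The next 3 lines show bases 1063 to 1152 of mt-Co1 (chrM:5328-6872, plus strand) beside Gm29216 (chr1:24615706-24616197, minus strand) and Gm13340 (chr2:22588103-22589647, minus strand). Capitals mark bases that differ from mt-Co1, which are A1066T in Gm29216 and T1072C and C1134T in Gm13340, counted from 1 at the first base of mt-Co1.
mt-Co2: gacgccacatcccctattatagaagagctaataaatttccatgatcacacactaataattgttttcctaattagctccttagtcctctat
Gm28661: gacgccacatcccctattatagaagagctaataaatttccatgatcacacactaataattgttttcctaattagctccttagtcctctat
mt-Co1: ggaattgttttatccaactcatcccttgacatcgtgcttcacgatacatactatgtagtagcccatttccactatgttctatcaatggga
Gm29216: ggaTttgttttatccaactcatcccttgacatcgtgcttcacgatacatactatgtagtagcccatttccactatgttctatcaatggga
Gm13340: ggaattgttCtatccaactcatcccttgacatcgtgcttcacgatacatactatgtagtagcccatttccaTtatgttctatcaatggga
Gm29216 matched mt-Co1 from base 1063 to its last base, 1545, with 1 difference, and Gm13340 had 97.6% identity with mt-Co1. Among the annotated transcripts no copy of at least 99% identity over at least 150 bases was found for mt-Atp8 or mt-Cytb. Chromosome sequence outside annotated transcripts was not searched. Gm28661 and Gm10925 (chr1:24613974-24614651, minus strand) are neighbours, as are mt-Co2, mt-Atp8 and mt-Atp6 in mitochondrial DNA. The bases between these copies may therefore hold a copy of mt-Atp8 that is not annotated, and its own row may be incomplete.

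Most of the TPM of the copied genes stood in the rows of the copies. Gm28661 had 5281, 5154 and 4877 TPM in LPS libraries, against 9997, 10132 and 10093 TPM in Ctrl libraries. The row of mt-Co2 itself, a gene for the complex IV subunit that receives electrons from cytochrome c, had 71.7, 159.6 and 25.1 TPM in LPS libraries, against 200.0, 297 and 372 TPM in Ctrl libraries. The own row thus held between 0.514% and 3.02% of the pair in LPS libraries and between 1.97% and 3.57% in Ctrl libraries. For mt-Co3, which encodes the third core subunit of complex IV, the own row had 0.28, 238 and 0.28 TPM in LPS libraries, against 185, 0.36 and 811 TPM in Ctrl libraries. Its groups overlapped, with 1 library far above the others in LPS and 1 near 0 in Ctrl. The copy Gm28437 had 3541, 3249.9 and 3308 TPM in LPS libraries, against 7604, 7997 and 6843 TPM in Ctrl libraries, with no overlap. Nothing in the labels or the table says how reads matching both places were shared out, and the own rows of mt-Co2, mt-Co3 and mt-Atp6 are therefore uncertain.

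With the TPM of each copy added to its mitochondrial row, weighted by the length of the copy, all 6 mitochondrially encoded members were called lower in LPS. This sum was chosen after the values were seen, and the lengths used for TPM are not known, so the weights are approximate. The levels in LPS as a percent of those in Ctrl libraries were 53.3% for mt-Co1, 50.1% for mt-Co2, 44.1% for mt-Co3, 42.1% for mt-Atp6, 42.1% for mt-Atp8 and 35.5% for mt-Cytb. All 6 sums were also called lower after median-of-ratios scaling. In bulk RNA, fewer cells of a type and less RNA per cell cannot be told apart.

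mt-Cytb encodes cytochrome b, the mitochondrially made subunit of complex III (chrM:14145-15288, plus strand), for which no such copy was found among annotated transcripts. It had 1366, 1293 and 1298 TPM in LPS libraries, against 3680, 3818 and 3642 TPM in Ctrl libraries. The highest LPS library was far below the lowest Ctrl library, and the difference was -1.49 (SE 0.05, limma adjusted p = 1.54e-07), or -1.0 after scaling (adjusted p = 2.37e-06).

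mt-Co1 encodes the subunit of complex IV that holds the oxygen-reducing site. Its own row had 6745, 6488 and 6521 TPM in LPS libraries, against 12629, 14001 and 12421 TPM in Ctrl libraries, a difference of -0.98 (SE 0.06, limma adjusted p = 5.95e-06). The groups did not overlap, and the own row held between 89.1% and 90.3% of the sum with Gm29216 in LPS libraries and between 93.5% and 96% in Ctrl libraries. Gm29216 alone had 2281, 2272 and 2508 TPM in LPS libraries, against 2744, 1841 and 2426 TPM in Ctrl libraries, and its groups overlapped. The sums gave a difference of -0.91 (adjusted p = 5.45e-06), and -0.41 after scaling (adjusted p = 0.000676). For mt-Co2 with its copy the sums were 5329, 5291 and 4881 TPM in LPS libraries, against 10153, 10384 and 10421 TPM in Ctrl libraries, a difference of -1.0 (SE 0.05, adjusted p = 2.38e-06). For mt-Co3 with its copy they were 3537, 3483 and 3304 TPM in LPS libraries, against 7779, 7987 and 7646 TPM in Ctrl libraries, a difference of -1.18 (SE 0.05, adjusted p = 6.44e-07). Neither sum overlapped between the groups, while the own rows alone gave -2.07 with an SE of 0.61 for mt-Co2 (adjusted p = 0.0163) and -3.01 with an SE of 2.83 for mt-Co3 (adjusted p = 0.36). The call on the own row of mt-Co2 was lost without Ctrl library 3 (-1.86, adjusted p = 0.0529) and after scaling (-1.57, adjusted p = 0.0628).

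mt-Atp8 and mt-Atp6 encode the mitochondrially made subunits of complex V and are read from a single mRNA, in which their coding sequences share 43 bases (chrM:7766-7969 and chrM:7927-8607, plus strand). mt-Atp8 had 8460, 8509 and 8226 TPM in LPS libraries, against 18522, 19909 and 21390 TPM in Ctrl libraries, a difference of -1.25 (SE 0.07, limma adjusted p = 2.42e-06). mt-Atp6 with its copy had 2662, 2464 and 2286 TPM in LPS libraries, against 6052, 6191 and 5358 TPM in Ctrl libraries, a difference of -1.25 (SE 0.08, adjusted p = 5.83e-06). Both coding regions of this mRNA thus stood at the same share of their Ctrl level, 42.1%. Their levels differed, though: mt-Atp8 averaged 8398 TPM in LPS and 19940 TPM in Ctrl libraries. For mt-Atp6 with its copy the means were 2471 TPM in LPS and 5867 TPM in Ctrl libraries. These levels therefore do not both follow the amount of the shared mRNA. A copy of mt-Atp8 outside annotated transcripts was not looked for. The own row of mt-Atp6 alone, with 128, 281 and 85.7 TPM in LPS libraries and 558, 889.9 and 551 TPM in Ctrl libraries, gave -2.15 (SE 0.42, adjusted p = 0.00226).

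**Figure D2:**
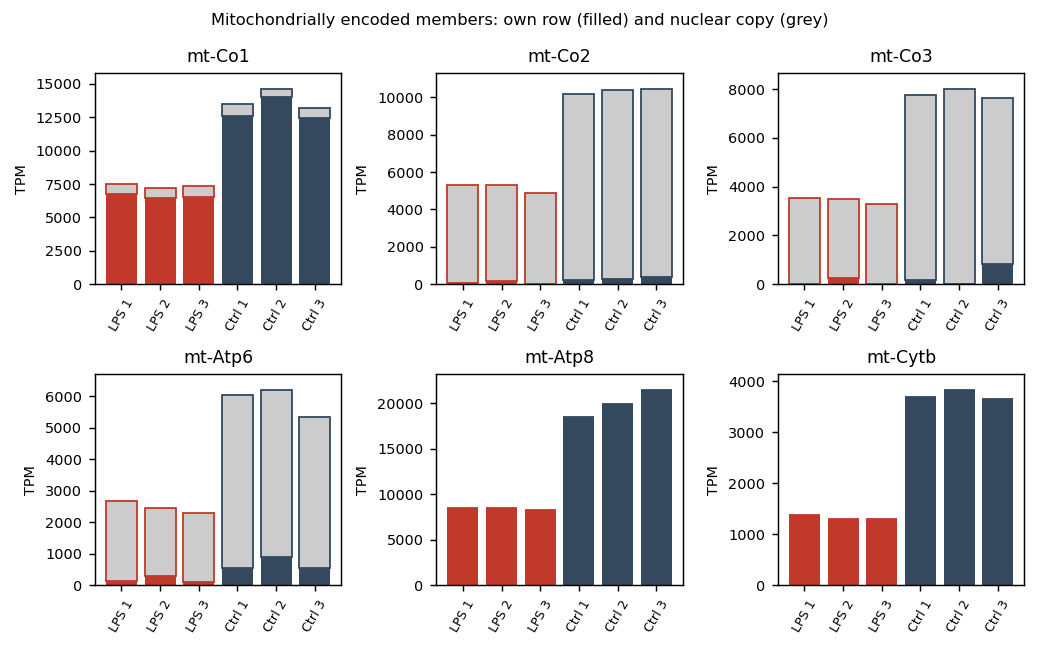
TPM of each mitochondrially encoded member in each library, LPS libraries left and Ctrl libraries right, with the own row and the length-weighted nuclear copy stacked. In every panel the 3 LPS bars are lower than the 3 Ctrl bars once the copy is included, and for mt-Co2, mt-Co3 and mt-Atp6 most of each bar is the copy.

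Within a library the balance of mitochondrial to nuclear subunit transcripts was lower after LPS in each complex. For complex III the ratio of summed TPM was 0.78, 0.734 and 0.796 in LPS libraries, against 1.98, 2.36 and 2.01 in Ctrl libraries. For complex IV, with copies included, it was 3.62, 3.65 and 3.73 in LPS libraries, against 6.68, 8.42 and 6.55 in Ctrl libraries. For complex V it was 2.08, 2.04 and 2.11 in LPS libraries, against 4.78, 5.36 and 5.19 in Ctrl libraries. The mitochondrial sum of complex V is mostly the mt-Atp8 row, and it counts the mRNA shared by mt-Atp8 and mt-Atp6 in both rows. None of these ratios overlapped between the groups, and no test was made of them because they are sums over members. Without the copies the ratios for complex IV lay between 1.51 and 1.58 in LPS and between 2.77 and 3.65 in Ctrl libraries, again without overlap.

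The nuclear sides of the ratios overlapped on deposited TPM but not after scaling. Nuclear subunits of complex III summed to 1752, 1760 and 1630 TPM in LPS libraries, against 1855, 1615 and 1815 TPM in Ctrl libraries. Those of complex IV summed to 4512, 4385 and 4152 TPM in LPS libraries, against 4703, 3914 and 4772 TPM in Ctrl libraries, and those of complex V to 5356, 5374 and 4985 TPM in LPS libraries, against 5144, 4873 and 5157 TPM in Ctrl libraries. All 3 sums overlapped between the groups. After median-of-ratios scaling none did: the range was 1887 to 2108 in LPS and 1324 to 1559 in Ctrl libraries for complex III, 4806 to 5384 in LPS and 3208 to 4044 in Ctrl libraries for complex IV, and 5770 to 6436 in LPS and 3994 to 4370 in Ctrl libraries for complex V. Mitochondrially encoded members with copies made up 2.88%, 2.83% and 2.73% of TPM in LPS libraries, against 5.97%, 6.29% and 6.17% in Ctrl libraries. Nuclear members made up 1.21%, 1.2% and 1.12% in LPS libraries, against 1.2%, 1.07% and 1.2% in Ctrl libraries.

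**Figure D3:**
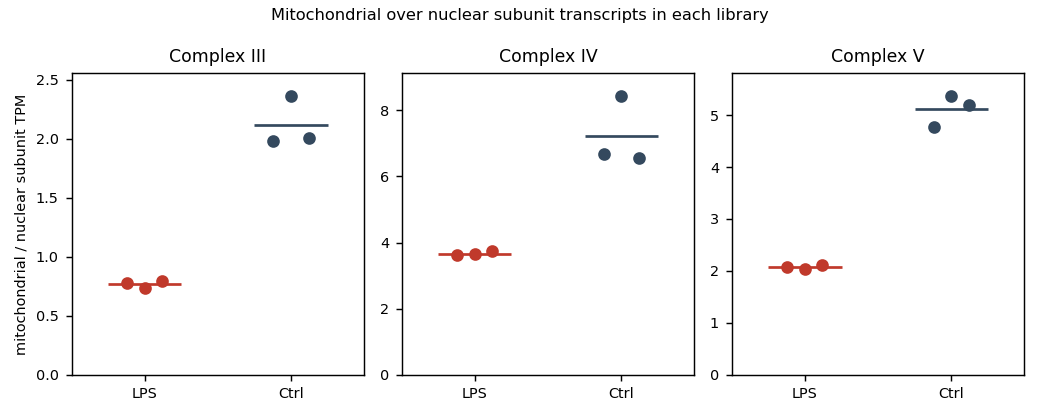
Ratio of mitochondrially encoded (copies included) to nuclear subunit TPM in each library, for complexes III, IV and V, with LPS left and Ctrl right. Points are libraries and lines are group means. The LPS points lie below all Ctrl points in each panel.

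Among the nuclear subunits of complex III 2 of 9 were called higher and 3 lower, with a median of -0.07, against 7 higher and 0 lower after scaling. The electron-carrying subunits went in opposite directions on deposited TPM. Cyc1 encodes cytochrome c1, the haem protein that hands electrons to cytochrome c (chr15:76343523-76346260, plus strand). It had 110.0, 111 and 110.3 TPM in LPS libraries, against 75.5, 74.9 and 77.8 TPM in Ctrl libraries, and rose by 0.53 (SE 0.04, limma adjusted p = 1.77e-05). Uqcrfs1 encodes the Rieske iron-sulfur protein, which passes an electron to cytochrome c1 (chr13:30540308-30545362, minus strand). It had 73.4, 74.2 and 68.4 TPM in LPS libraries, against 89.9, 93.9 and 91.7 TPM in Ctrl libraries, a difference of -0.35 (SE 0.05, adjusted p = 0.000491) that was 0.14 after scaling (adjusted p = 0.0501). Neither gene overlapped between the groups. Uqcrfs1 stood at 0.652 ± 0.0279 of the Cyc1 level in LPS and 1.21 ± 0.0402 of it in Ctrl libraries (SD, n = 3 each), so the order of these partners within a library was turned round.

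The core subunits Uqcrc1 and Uqcrc2, which form the matrix face of complex III, were higher only after scaling. Uqcrc1 had 183, 185 and 187 TPM in LPS libraries, against 198, 209.7 and 196 TPM in Ctrl libraries, and its difference of -0.12 (SE 0.04, limma adjusted p = 0.0346) became 0.37 after scaling, called higher. Its call on deposited TPM was lost on leaving out any LPS library or Ctrl library 1 or 2. Uqcrc2 had 75.0, 75.7 and 78.4 TPM in LPS libraries, against 74.3, 77.6 and 78.1 TPM in Ctrl libraries, and was not called (-0.01, adjusted p = 0.912), but it was called higher after scaling (0.49, adjusted p = 4.49e-05). Of the 5 small subunits, Uqcrb rose and Uqcr11 fell on deposited TPM. Uqcrb, known as a ubiquinone-binding subunit, had 267, 268 and 225 TPM in LPS libraries, against 203, 203 and 203 TPM in Ctrl libraries (0.31, SE 0.07, adjusted p = 0.00543). Uqcr11 had 242, 254 and 217 TPM in LPS libraries, against 332, 254 and 317 TPM in Ctrl libraries. It was the only called member whose groups overlapped; its difference was -0.33 (adjusted p = 0.0262), 0.16 after scaling, and the call was lost on leaving out LPS library 1 or 3 or Ctrl library 1 or 3. Uqcrq, Uqcr10 and Uqcrh were not called, and their groups overlapped. Uqcrq had 196, 175 and 195 TPM in LPS libraries, against 188, 128 and 164 TPM in Ctrl libraries (0.25, adjusted p = 0.126). Uqcr10 had 347, 361 and 321 TPM in LPS libraries, against 404, 341 and 429 TPM in Ctrl libraries (-0.18, adjusted p = 0.102).

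Cycs, the somatic cytochrome c that shuttles electrons between complexes III and IV and takes part in apoptosis when released (chr6:50562563-50566538, minus strand), rose. It had 37.4, 37.6 and 33.3 TPM in LPS libraries, against 15.5, 17.3 and 13.4 TPM in Ctrl libraries. All LPS libraries lay above all Ctrl libraries, and the difference was 1.18 (SE 0.10, limma adjusted p = 2.91e-05), or 1.65 after scaling. The ratio of Cycs to Cyc1 was 0.327 ± 0.0217 in LPS and 0.203 ± 0.0294 in Ctrl libraries (SD, n = 3 each).

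Among the nuclear subunits of complex IV 13 of 18 were tested, of which 4 were called higher and 3 lower, against 10 higher and 1 lower after scaling. Several of these subunits have alternative forms that differ between tissues. Cox4i1, the ubiquitous form of subunit 4, had 721, 733 and 706 TPM in LPS libraries, against 898, 779 and 892 TPM in Ctrl libraries. All LPS libraries lay below all Ctrl libraries (-0.25, SE 0.06, limma adjusted p = 0.00841), but the difference was 0.25 after scaling (adjusted p = 0.0223). Cox4i2, the form linked to low oxygen in lung, was at or below 0.12 TPM in every library and was not tested. Cox5a, the matrix subunit that binds next to subunit 4, rose, with 367, 367 and 336 TPM in LPS libraries, against 288, 234 and 274 TPM in Ctrl libraries (0.43, SE 0.08, adjusted p = 0.00216). Cox4i1 was present at 2.02 ± 0.069 times the Cox5a level in LPS and 3.23 ± 0.106 times in Ctrl libraries (SD, n = 3 each). Cox5b, the zinc-binding subunit, had 239.5, 254 and 233 TPM in LPS libraries, against 210.3, 157 and 203 TPM in Ctrl libraries (0.36, SE 0.11, adjusted p = 0.0195); its call was lost without LPS library 2 (0.32, adjusted p = 0.0634).

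In the subunit 7A family changes went in both directions. Cox7a1, the heart and muscle form (chr7:30184144-30186078, plus strand), had 3.39, 1.77 and 0.72 TPM in LPS libraries, against 8.05, 10.6 and 13.4 TPM in Ctrl libraries. It fell by 2.06 (SE 0.34, limma adjusted p = 0.000983), and was the only nuclear member called lower on both scales (-1.67 after scaling, adjusted p = 0.00562). Cox7a2, the form found in most tissues, rose, with 196, 203 and 168 TPM in LPS libraries, against 152, 133 and 139 TPM in Ctrl libraries (0.41, SE 0.08, adjusted p = 0.00298). Cox7a2l, which encodes a factor that joins complexes III and IV into supercomplexes (chr17:83501918-83517330, minus strand), had 177, 167 and 162 TPM in LPS libraries, against 256, 216 and 245 TPM in Ctrl libraries. Its difference was -0.50 (SE 0.07, adjusted p = 0.000493) on deposited TPM and -0.00 after scaling (adjusted p = 0.995). Within libraries Cox7a2l stood at 0.898 ± 0.0711 of Cox7a2 in LPS and 1.69 ± 0.0758 in Ctrl libraries, and Cox7a1 at 0.0101 ± 0.00662 of Cox7a2 in LPS and 0.0761 ± 0.0218 in Ctrl libraries (SD, n = 3 each). Neither ratio overlapped between the groups.

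Of the other nuclear subunits of complex IV 1 was called. Cox8a, the common form of the smallest subunit, rose, with 623, 586 and 561 TPM in LPS libraries, against 503, 513 and 522 TPM in Ctrl libraries (0.20, SE 0.05, limma adjusted p = 0.00769). Its relatives Cox8b and Cox8c, like Cox7b2, were listed at 0 in every library. Cox6a1, the liver-type form of subunit 6A, had 692, 643 and 594 TPM in LPS libraries, against 706, 699.8 and 742 TPM in Ctrl libraries, and was not called although its groups did not overlap (-0.16, adjusted p = 0.0533). The muscle-type Cox6a2 had 1.97, 1.35 and 0.89 TPM in LPS libraries, against 0.64, 0.27 and 1.04 TPM in Ctrl libraries, and was not called (0.54, adjusted p = 0.0675). Cox6b1 had 631, 591 and 577 TPM in LPS libraries, against 566, 406 and 591 TPM in Ctrl libraries (0.22, adjusted p = 0.179). The testis form Cox6b2 did not reach the minimum for testing, at 0.33, 0 and 0.5 TPM in LPS libraries and 0.82, 2.04 and 1.11 TPM in Ctrl libraries. Cox7b had 286, 258 and 292 TPM in LPS libraries, against 473, 249 and 509 TPM in Ctrl libraries. Its groups overlapped through Ctrl library 2 alone (-0.49, adjusted p = 0.115), and without that library the difference was -0.82 (adjusted p = 0.000103). Cox6c had 255, 249.9 and 212 TPM in LPS libraries, against 279, 232 and 280.5 TPM in Ctrl libraries (-0.14, adjusted p = 0.225), and Cox7c had 319, 330.2 and 309 TPM in LPS libraries, against 361, 282 and 359 TPM in Ctrl libraries (-0.06, adjusted p = 0.616). Cox20b and Cox6c2 matched the name rule but are annotated as processed pseudogenes and were at or below 0.54 TPM.

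Ndufa4, counted today among the subunits of complex IV despite its complex I name, does not fall under the name rule. It had 229, 239.9 and 211 TPM in LPS libraries, against 342, 295 and 353 TPM in Ctrl libraries (-0.54, limma adjusted p = 0.000584), and was not called after scaling. AA467197 (Nmes1), the gene of its paralogue, rose, with 7.35, 9.93 and 9.85 TPM in LPS libraries, against 1.4, 1.53 and 1.65 TPM in Ctrl libraries (1.98, adjusted p = 8.03e-06). Despite that rise AA467197 stood at 0.0401 ± 0.00737 of the Ndufa4 level in LPS and 0.00465 ± 0.000547 in Ctrl libraries (SD, n = 3 each).

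The highest rise among the nuclear members was in an assembly factor of complex IV, Cox17. Of the 9 assembly factors tested, 3 were called higher and 1 lower, with a median of -0.05, against 5 higher and 0 lower after scaling. Cox17, the copper chaperone that supplies copper for subunits 1 and 2 (chr16:38346991-38352763, plus strand), had 251, 263 and 212 TPM in LPS libraries, against 113, 81.0 and 98.9 TPM in Ctrl libraries (1.31, SE 0.13, limma adjusted p = 7.13e-05). Cox18, an inner-membrane insertase that helps place the end of subunit 2 across the membrane (chr5:90214724-90224001, minus strand), had 22.9, 21.3 and 19.6 TPM in LPS libraries, against 9.71, 8.37 and 9.27 TPM in Ctrl libraries (1.14, SE 0.09, adjusted p = 1.66e-05). Neither gene overlapped between the groups. Cox10 and Cox15, which act one after the other in making haem A for complex IV, were called in opposite directions on deposited TPM. Cox10 had 11.4, 12.7 and 14.1 TPM in LPS libraries, against 7.92, 8.54 and 8.51 TPM in Ctrl libraries (0.55, SE 0.09, adjusted p = 0.00114). Cox15 had 11.6, 11.8 and 12.8 TPM in LPS libraries, against 17.6, 19.4 and 18.5 TPM in Ctrl libraries (-0.58, SE 0.07, adjusted p = 0.000252), and was not called after scaling (-0.11). Cox16 had 33.2, 44.8 and 26.3 TPM in LPS libraries, against 49.5, 42.6 and 47.6 TPM in Ctrl libraries, and was not called (-0.44, adjusted p = 0.0532), nor were Cox11, Cox14, Cox19 and Cox20, with differences between -0.12 and 0.01. Of these Cox19 had 21.1, 15.6 and 18.6 TPM in LPS libraries, against 21.8, 16.5 and 22.1 TPM in Ctrl libraries. Cox17 stood at 0.676 ± 0.0428 of the Cox5a level in LPS and 0.366 ± 0.0243 of it in Ctrl libraries (SD, n = 3 each).

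Differences of the nuclear genes of complex V on deposited TPM lay between -0.73 and 0.51. Of the 17 tested 4 were called higher and 3 lower, with a median of -0.01, against 16 higher and 0 lower after scaling. In the F1 head, where ATP is made, the catalytic beta subunit Atp5b had 1139, 1111 and 1133 TPM in LPS libraries, against 984, 1029.9 and 1071 TPM in Ctrl libraries (0.13, SE 0.05, limma adjusted p = 0.0293). The partner alpha subunit Atp5a1 had 371, 386 and 413 TPM in LPS libraries, against 452, 479 and 453 TPM in Ctrl libraries (-0.24, SE 0.05, adjusted p = 0.00412), a difference that was 0.25 after scaling, called higher. The ratio of Atp5a1 to Atp5b was 0.346 ± 0.0195 in LPS and 0.449 ± 0.0227 in Ctrl libraries (SD, n = 3 each), without overlap. The call on Atp5b was lost on leaving out any LPS library or Ctrl library 1. The gamma, delta and epsilon subunits Atp5c1, Atp5d and Atp5e were not called, at differences between -0.17 and -0.01.

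The c ring is made of a single mature protein encoded by 3 genes, Atp5g1, Atp5g2 and Atp5g3, which differ in the targeting peptide that is cut off on import. Atp5g3, with the most TPM of these genes, had 363, 356 and 337 TPM in LPS libraries, against 330.5, 300.5 and 300.9 TPM in Ctrl libraries (0.18, SE 0.05, limma adjusted p = 0.0187). The order of these genes and their shares rest on the length correction. Listed lengths are 723 bases for Atp5g3 and 4660 bases for Atp5g1. Atp5g1 had 201, 205 and 198 TPM in LPS libraries, against 165, 132 and 152 TPM in Ctrl libraries (0.43, SE 0.08, adjusted p = 0.00189). Both rose without overlap, while Atp5g2 had 9.44, 10.2 and 7.92 TPM in LPS libraries, against 18.0, 17.1 and 12.7 TPM in Ctrl libraries (-0.73, SE 0.15, adjusted p = 0.00282; -0.27 and not called after scaling). As shares of c subunit transcripts, Atp5g2 gave 1.64%, 1.79% and 1.46% in LPS libraries, against 3.51%, 3.8% and 2.73% in Ctrl libraries. Atp5g1 gave 35%, 35.9% and 36.5% in LPS libraries, against 32.1%, 29.3% and 32.7% in Ctrl libraries. The call on Atp5g3 was lost on leaving out LPS library 1 or 2 or Ctrl library 2 or 3.

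Of the subunits around the ring, Atp5md, a small membrane subunit that helps hold ATP synthase dimers together (chr19:47083464-47090647, minus strand), rose the most. It had 308, 297 and 243 TPM in LPS libraries, against 194, 198 and 199.98 TPM in Ctrl libraries (0.51, SE 0.09, limma adjusted p = 0.0013). Atp5k, another dimer subunit, had 276, 280.3 and 239.8 TPM in LPS libraries, against 233, 189 and 243 TPM in Ctrl libraries, and was not called (0.26, adjusted p = 0.0534). In the peripheral stalk, which keeps the head from turning, Atp5h had 273, 274 and 242 TPM in LPS libraries, against 312, 282 and 307 TPM in Ctrl libraries (-0.19, SE 0.07, adjusted p = 0.0301), but 0.30 and called higher after scaling. Its call on deposited TPM was lost on leaving out LPS library 3 or Ctrl library 1 or 3. Atp5pb, Atp5j and the main row of Atp5o lay between -0.05 and 0.05 and were not called, and a second row named Atp5o was listed at 0 in every library.

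**Figure D4:**
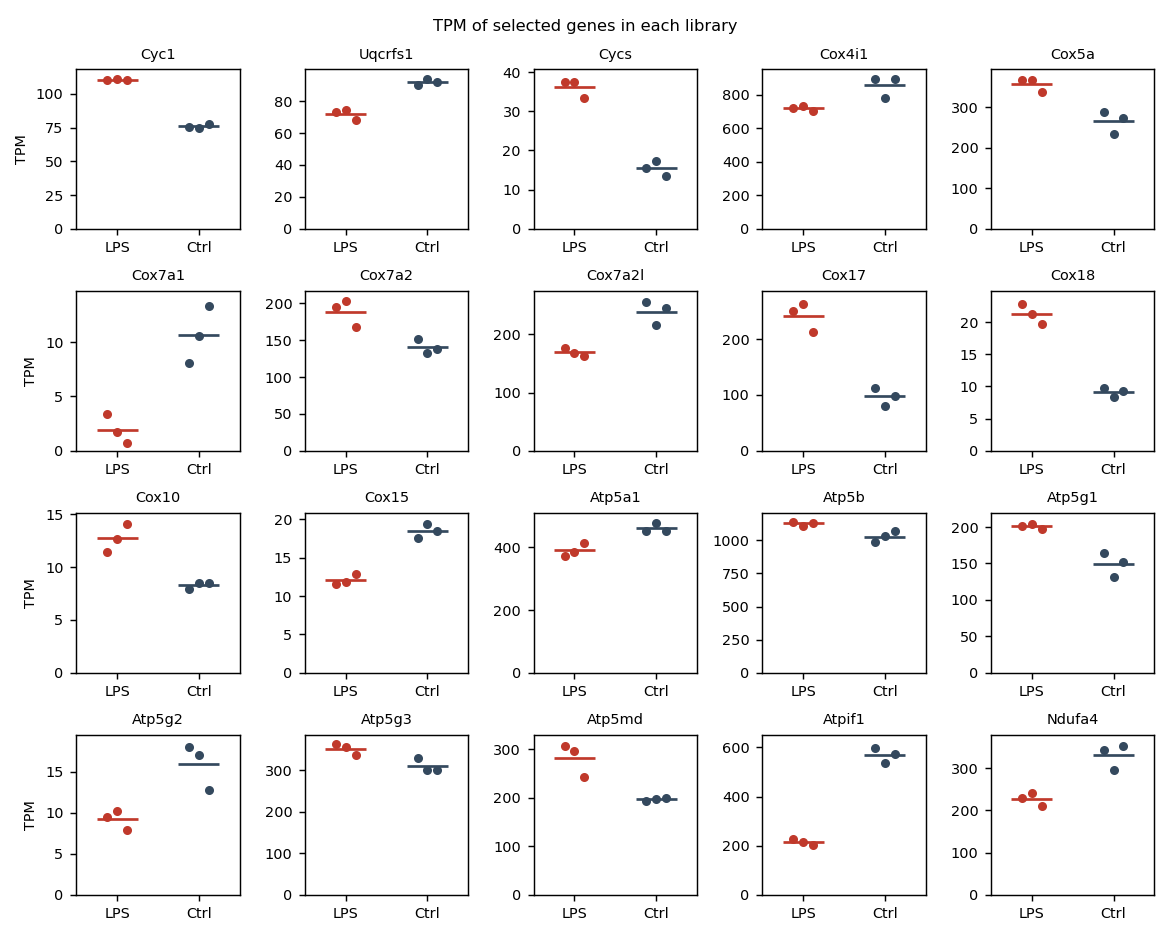
TPM of 18 members and of Atpif1 and Ndufa4 in each library, LPS left and Ctrl right, with lines at the group means and each panel on its own linear axis from 0. Cycs, Cox17 and Cox18 lie higher in all LPS than in all Ctrl libraries, and Cox7a1, Cox7a2l and Atpif1 lower.

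Over the 55 tested members the groups did not overlap in 29, against 78.6% of all tested genes. Atpif1, the inhibitor that binds F1 and blocks ATP hydrolysis when the proton gradient fails, lies outside the name rule and moved more than any nuclear subunit of complex V. It had 225, 215 and 202 TPM in LPS libraries, against 599, 537 and 572 TPM in Ctrl libraries (-1.41, limma adjusted p = 7.87e-07), and was also called lower after scaling. Its ratio to Atp5b was 0.19 ± 0.0103 in LPS and 0.555 ± 0.047 in Ctrl libraries (SD, n = 3 each). The list of assembly and regulator genes of complex V that holds Atpif1 had 0 higher and 5 lower of 5 tested, with a median of -0.60, and 0 higher and 2 lower after scaling. Among all tested genes 59.8% were called lower, with a median of -0.44, and 33.6% were called lower after scaling. Atpaf1, which assembles the F1 head, had 5.41, 7.08 and 6.51 TPM in LPS libraries, against 11.4, 11.2 and 14.1 TPM in Ctrl libraries (-0.85).

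Assembly factors of complex III outside the name rule had 2 higher and 2 lower of 5 tested, with a median of 0.17. After scaling 3 were called higher and 1 lower, with a median of 0.66. Uqcc2, which takes part in cytochrome b synthesis, had 91.2, 85.1 and 88.1 TPM in LPS libraries, against 66.5, 53.7 and 56.1 TPM in Ctrl libraries (0.58), and Ttc19, which clears fragments of the Rieske protein, had 5.67, 6.9 and 6.23 TPM in LPS libraries, against 3.34, 2.2 and 3.56 TPM in Ctrl libraries (0.86). Bcs1l, which inserts the Rieske protein into complex III, was lower, with 7.22, 6.6 and 7.74 TPM in LPS libraries, against 12.5, 14.9 and 13.3 TPM in Ctrl libraries (-0.83, limma adjusted p = 0.000152). Uqcc3, which takes part in building the cytochrome b module, had 30.5, 29.8 and 28.9 TPM in LPS libraries, against 39.0, 38.2 and 40.6 TPM in Ctrl libraries (-0.39, adjusted p = 0.000374; 0.09 and not called after scaling). Genes of complex IV outside the rule had 4 higher and 9 lower of 21 tested, with a median of -0.27, against 9 higher and 3 lower after scaling. Beside both lists, all tested genes had 16.3% higher and 59.8% lower, with a median of -0.44. After scaling those shares were 33.5% and 33.6%. Higd1a, a small protein induced by low oxygen that binds complex IV, rose, with 19.1, 24.4 and 16.8 TPM in LPS libraries, against 13.4, 6.91 and 9.01 TPM in Ctrl libraries (1.0, adjusted p = 0.00523). Cmc2, which takes part in complex IV biogenesis, fell on both scales, with 5.48, 7.72 and 5.93 TPM in LPS libraries, against 25.2, 20.5 and 23.3 TPM in Ctrl libraries (-1.71, adjusted p = 1.76e-05). Oxa1l, the insertase for mitochondrially made subunits, was lower on both scales, with 26.0, 25.7 and 28.4 TPM in LPS libraries, against 54.0, 46.9 and 52.6 TPM in Ctrl libraries (-0.91).

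Genes that make and maintain mitochondrial RNA were called in both directions, as were all tested genes (16.3% higher and 59.8% lower, median -0.44). Of 24 tested, 4 were called higher and 11 lower, with a median of -0.23, against 7 higher and 5 lower after scaling. Slirp, which with its partner protein stabilises mitochondrial mRNAs, had 40.4, 38.5 and 35.4 TPM in LPS libraries, against 20.2, 15.4 and 22.0 TPM in Ctrl libraries (0.96, limma adjusted p = 0.000325), and Pnpt1, a mitochondrial RNA nuclease, had 26.8, 26.8 and 26.3 TPM in LPS libraries, against 17.7, 19.5 and 18.5 TPM in Ctrl libraries (0.50, adjusted p = 0.000203). Polg, the mitochondrial DNA polymerase, was lower on both scales, with 24.0, 21.1 and 24.99 TPM in LPS libraries, against 44.8, 47.4 and 45.1 TPM in Ctrl libraries (-0.94, adjusted p = 1.97e-05). Mterf4, which acts in assembly of the mitochondrial ribosome, had 6.34, 7.51 and 4.74 TPM in LPS libraries, against 11.2, 12.4 and 12.95 TPM in Ctrl libraries (-0.89, adjusted p = 0.00108). Tfam, which packages mitochondrial DNA and starts its transcription, had 15.0, 13.5 and 10.6 TPM in LPS libraries, against 17.0, 30.3 and 20.8 TPM in Ctrl libraries (-0.73, adjusted p = 0.0157), and was not called after scaling. The own rows of the mitochondrially encoded complex I mRNAs had 0 higher and 7 lower of 7 tested on both scales, with medians of -1.25 and, after scaling, -0.75. Among these, mt-Nd4l had 100% identity with Gm10222 and mt-Nd3 had 99.7% with Gm28438. Both copies had more TPM than the own row in every library, so these own rows are uncertain too. Complex II, which has no mitochondrially encoded subunit, had 1 higher and 2 lower of 4 tested, with a median of -0.13, against 2 higher and 0 lower after scaling, with a median of 0.36.

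The nuclear regulators of respiratory genes had 3 higher and 5 lower of 9 tested, with a median of -0.49, against 4 higher and 2 lower after scaling. Among all tested genes 16.3% were called higher and 59.8% lower, with a median of -0.44. Esrra, an orphan receptor that drives respiratory genes, had 57.2, 58.3 and 62.5 TPM in LPS libraries, against 27.7, 25.4 and 28.1 TPM in Ctrl libraries (1.1, limma adjusted p = 3.75e-06). Its coactivator Ppargc1b had 3.58, 3.03 and 3.69 TPM in LPS libraries, against 0.94, 1.02 and 1.22 TPM in Ctrl libraries (1.1, adjusted p = 0.000104). Gabpa, the ETS factor known to bind promoters of complex IV genes, and Sp1, a general promoter-binding factor, were lower on both scales. Gabpa had 12.2, 11.4 and 13.4 TPM in LPS libraries, against 21.9, 26.1 and 22.98 TPM in Ctrl libraries (-0.89). Sp1 had 13.2, 13.8 and 14.3 TPM in LPS libraries, against 28.4, 30.5 and 27.2 TPM in Ctrl libraries (-1.01, adjusted p = 9.32e-06).

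Promoters of the nuclear members were looked up in RefSeq (GRCm38.p6), from 250 bases before to 50 bases after each gene's start, and 41 of 57 matched. The letters searched on both strands were GCATGCGC for the NRF1 motif, CCGGAAG for the ETS motif bound by GABP, TGACGTCA for the CREB motif and TCAAGGTCA for the ESRRA motif. The NRF1 letters were in promoters of 7 members (17.1%), against 3.05% of all 27025 genes with a promoter sequence. The ETS letters were in 16 (39%), against 9.93%. Of the 41 members 38 were tested for expression, while the 27025 genes include many that were not. Shares over tested genes alone were not taken, so an excess particular to respiratory genes was not tested. The CREB letters were in 2 (4.88%, against 2.03%), and the ESRRA letters in 1 (2.44%, against 0.466%), that of Atp5g3. Among tested members with a promoter sequence, the ETS letters were in 3 of 10 called higher, 3 of 8 called lower and 10 of 20 not called, and the NRF1 letters in 1 of 10 called higher, 3 of 8 called lower and 3 of 20 not called. The promoters that held the CREB letters were those of Cycs, which rose, and Uqcrfs1, which was lower on deposited TPM, and they are shown for that contrast with TGACGTCA and, in Cycs, GCATGCGC in capitals. They lie at chr6:50566520-50566819 and chr13:30545267-30545566, both on the minus strand, and are written in the direction of transcription. A match is a description of the letters and not of a bound site.
Cycs promoter: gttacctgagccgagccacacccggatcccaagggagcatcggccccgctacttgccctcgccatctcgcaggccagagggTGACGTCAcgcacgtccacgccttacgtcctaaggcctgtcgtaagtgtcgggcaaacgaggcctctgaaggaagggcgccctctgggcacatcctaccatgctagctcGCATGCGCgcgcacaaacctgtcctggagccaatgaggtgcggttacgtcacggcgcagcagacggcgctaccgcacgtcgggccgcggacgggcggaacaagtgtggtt
Uqcrfs1 promoter: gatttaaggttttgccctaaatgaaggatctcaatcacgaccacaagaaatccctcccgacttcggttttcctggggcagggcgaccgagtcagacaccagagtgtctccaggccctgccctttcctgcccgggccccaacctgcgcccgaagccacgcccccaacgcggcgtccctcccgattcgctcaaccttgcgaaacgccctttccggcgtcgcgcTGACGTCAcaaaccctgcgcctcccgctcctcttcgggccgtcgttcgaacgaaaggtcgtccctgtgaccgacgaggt

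Ctrl library 2 stood apart in these genes. It was the lowest of the Ctrl libraries in 33 of the 49 tested nuclear members (67.3%), against 26.6% of all tested genes, and its median log2 difference from the mean of the other Ctrl libraries was -0.14 in nuclear members and 0.04 in all tested genes. Short genes were lower in it, with a median of -0.06 over the 641 tested genes of up to 600 bases and -0.27 over the 17 members of that length. The nuclear members are short, with a median of 742 bases against 2626 for all tested genes. Without Ctrl library 2 the counts of nuclear members were 13 higher and 13 lower; Cox6c, Cox7b, Cox7c and Uqcr10 were then called lower, and Atp5g3 and Uqcrc1 were no longer called. Other calls gained by leaving out a library were Cox6a1 without LPS library 1 (-0.21, limma adjusted p = 0.0193), Cox16 without LPS library 2 (-0.63), Cox6a2 (0.71 each) and Atp5k (0.34 and 0.33) without LPS library 3 or Ctrl library 3, Uqcrq without Ctrl library 1 (0.38), and Atp5e without LPS library 2. The part of transcript length in the differences between LPS and Ctrl was not tested.

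All 13 macrophage markers were present in every group, summing to between 37677 and 40181 TPM in LPS and between 29496 and 31133 TPM in Ctrl libraries. The 15 neutrophil markers, of which 3 were at 0 throughout, summed to between 3255 and 3592 TPM in LPS and between 68.1 and 73.3 TPM in Ctrl libraries. All 5 tested neutrophil markers were called higher in LPS. The 3 at 0 throughout were Ly6g, Retnlg and Prtn3. Mpo, Elane, Ngp, Ltf, Ctsg and Cxcr2 were at or below 0.45 TPM in every library and were not tested either. Lcn2, which macrophages also make, gave between 3021 and 3370 TPM of the sum in LPS libraries, and without it the list summed to between 222 and 244 TPM in LPS and between 67.6 and 73.3 TPM in Ctrl libraries. S100a8 averaged 79.9 TPM in LPS and 4.33 TPM in Ctrl libraries and Csf3r 109 TPM in LPS and 31.3 TPM in Ctrl libraries, while S100a9 was at or below 0.83 TPM in LPS and 1.56 TPM in Ctrl libraries. The part of neutrophil transcripts in the differences of the members was not tested. Markers of lymphocytes, red cells, chondrocytes, mast cells, stroma and dendritic cells summed to at most 13.8 TPM per list and library. All 6 LPS response genes checked were called higher.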

How the data were processed

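Gene levels of 3 LPS and 3 Ctrl macrophage libraries were taken from one table. The values are TPM as deposited by the authors, and each library sums to between 999999.2 and 1000000.0 TPM. The submitters' processing notes list Bowtie 0.12.2, mm8 and mm9 without saying what each was used for. Not given in the sources used here are the quantifier, annotation and strand setting and the treatment of reads with several matches. Depth is unknown, because TPM does not keep it, and counting error could not be given.

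Gene identifiers were matched to GENCODE M21 (GRCm38), which holds 52081 of them (93.4%) and all 63 members, 61 under the same name. All coordinates are from GRCm38. Nuclear copies were found by aligning its transcripts to each other. A gene was tested where 3 or more of the 6 libraries had 1 TPM or more (12440 genes), with limma 3.58.1 (trended eBayes, R 4.3.3) on log2(TPM + 1), LPS minus Ctrl, two-sided. P-values were adjusted by Benjamini-Hochberg across those genes and called under 0.05. This scale understates the change of low genes. The script was tested on simulated data. The members, gene lists, marker lists and tests were chosen with earlier results of these data known. Every member was counted. Those named with all library values are the mitochondrially encoded members, Cyc1, Cycs, Uqcrfs1, the isoform sets, and the 3 largest differences in each direction within complex III, complex IV subunits, complex IV assembly factors and complex V. Uqcrc1, Uqcrc2, Cox7c and Atp5b were added after their values were seen. Outside the members they are Ndufa4, AA467197, Atpif1 and the 2 largest in each direction of each list, with Tfam added after its values were seen. Alternatives were another scaling, pseudocount 0.1, other filters, no trend, Saa3 and Fth1 or mitochondrial genes left out, the replicate number as a block and each library left out.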

Additional observations from a re-analysis of the deposited data

How the results depend on the processing

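Scaling moved the counts most. Median-of-ratios scaling called 4167 of all tested genes higher and 4181 lower, and 39 nuclear members higher and 1 lower. Quantile normalization called 4029 genes higher and 4257 lower, and 20 nuclear members higher and 5 lower. With Saa3 and Fth1 left out of the total, 26 nuclear members were higher and 4 lower. Over all tested members 23 of the 33 negative differences became positive after median-of-ratios scaling. Sign changes are listed for the genes chosen by the naming rule only. After median-of-ratios scaling they were Atp5a1 (0.25), Atp5h (0.30), Cox16 (0.04), Cox19 (0.35), Cox4i1 (0.25), Cox6a1 (0.34), Cox6c (0.35), Cox7b (0.01), Uqcc3 (0.09), Uqcr10 (0.31), Uqcr11 (0.16) and Uqcrfs1 (0.14). Among these genes they were, after quantile normalization, Cox19 (0.38), Cox4i1 (0.00) and Uqcc3 (0.03). Among them without Saa3 and Fth1 they were Atp5a1 (0.01), Atp5h (0.06), Cox19 (0.12), Cox4i1 (0.00), Cox6a1 (0.09), Cox6c (0.11) and Uqcr10 (0.07).

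Leaving out each library in turn gave 11 to 15 nuclear members higher, 7 to 13 lower, 4 to 5 mitochondrially encoded members lower, and over all tested genes 1899 to 2012 higher and 7051 to 7260 lower. A minimum of 5 TPM gave 15 nuclear members higher and 12 lower, no filter 12 and 9, no trend 13 and 8, mitochondrial genes left out 13 and 12, and a pseudocount of 0.1 gave 14 and 10. With the nuclear copies added, an alternative chosen after seeing the data, 6 mitochondrially encoded members were lower. Deviations from the group means had correlations of 0.0744, -0.151 and 0.0765 between libraries of the same number. Between libraries of unlike number they lay from -0.192 to 0.119. With 3 libraries per group such correlations cannot settle whether the numbers pair the libraries, and the labels do not say. With the replicate number as a block 14 nuclear members were higher and 9 lower, and 5 mitochondrially encoded members were lower. Of all tested genes 1993 were then higher and 7304 lower. Unknown depth limits what can be said of low genes such as Cox7a1 and Cox6a2.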

Other observations

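The mitochondrial ribosomal RNAs, which are read from the same strand of mitochondrial DNA as the complex IV and V mRNAs, differed from one another. mt-Rnr1 had 498, 491 and 401 TPM in LPS libraries, against 219.9, 221 and 204 TPM in Ctrl libraries, and rose by 1.1 (limma adjusted p = 2.2e-05), or 1.59 after median-of-ratios scaling. mt-Rnr2 had 254, 238 and 214 TPM in LPS libraries, against 325, 332 and 316 TPM in Ctrl libraries (-0.46, adjusted p = 0.000496), and 0.03 after scaling. The ratio of mt-Rnr1 to mt-Rnr2 was 1.97 ± 0.0952 in LPS and 0.664 ± 0.015 in Ctrl libraries (SD, n = 3 each), without overlap. These genes were chosen after their values were seen, and the labels do not say how ribosomal RNA was treated in making the libraries.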
